A study of Homo sapiens with 12 samples.

Results

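DNA replication and repair genes were examined here as a group of 49 genes among the 14884 genes with a symbol on the array. They were chosen by name alone, as the genes of the MCM, GINS, RAD and XRCC families, the mismatch repair genes of the MSH and MLH families, and PCNA, CDC6, CDT1, ATR, CHEK1, CHEK2, RRM1 and RRM2. Genes with several probesets were represented by the brightest one, judged by its mean on all 12 arrays. None of their measured values entered the rule, although the genes were chosen with earlier results of these data known. The ORC, DNA polymerase, primase, RFC, RPA, FANC and ERCC families, which belong to the same pathways, were not analysed here.

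All samples were H1299-Dendra2 cells, from a human lung carcinoma of the non-small cell type, into which Dendra2 had been stably introduced. Dendra2 is a fluorescent protein that turns from green to red under laser light. The 4 groups, with 3 arrays each, were leader cells, follower cells, invasive photoconverted cells (IR) and invasive non-photoconverted cells (NG). Leader cells head the chains of cells that invade from a spheroid into matrix, and follower cells trail behind them. Per the methods, leader and follower cells were photoconverted so that they could be sorted. IR and NG cells are invading cells that did or did not receive the converting laser light, so NG cells were the only group without it. Each array was hybridised with amplified cDNA from a well of a few sorted cells, and neither the labels nor the methods say whether the wells of a group came from separate cultures, so the p-values below measure only the spread between these wells. All groups come from 1 cell line, and the methods describe sorted cells that were expanded into purified leader and follower lines apart from the small wells, in triplicate, that were taken for the arrays.

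Before a cell copies its DNA, CDC6 and CDT1 load the ring of MCM2 to MCM7 onto origins, and the GINS complex joins that ring to form the helicase that unwinds the double strand. PCNA then clamps the polymerases to the template, while ribonucleotide reductase, made of RRM1 and RRM2, supplies the nucleotides. The checkpoint kinases ATR, CHEK1 and CHEK2 slow the cycle when copying stalls. Proteins such as RAD52, RAD54L and XRCC2 to XRCC6 mend broken ends by recombination or by joining. Many of the replication genes are transcribed in late G1 and S phase under E2F factors, so their RNA is commonly read as a sign of how many cells are dividing.

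The promoters of MCM3, MCM6 and PCNA, credited to RefSeq on build GRCh38.p14, show a sequence that many of these genes share and that the choice by name did not use. The capitals mark exact matches to the E2F strings TTTCCCGC or TTTGGCGC, searched on both strands from 250 bases before to 50 bases after the start of the gene. The window of MCM3 is chr6:52284693-52284992, that of MCM6 chr2:135876394-135876693 and that of PCNA chr20:5126573-5126872, all on the minus strand and all written 5′ to 3′ in the direction of transcription.
MCM3: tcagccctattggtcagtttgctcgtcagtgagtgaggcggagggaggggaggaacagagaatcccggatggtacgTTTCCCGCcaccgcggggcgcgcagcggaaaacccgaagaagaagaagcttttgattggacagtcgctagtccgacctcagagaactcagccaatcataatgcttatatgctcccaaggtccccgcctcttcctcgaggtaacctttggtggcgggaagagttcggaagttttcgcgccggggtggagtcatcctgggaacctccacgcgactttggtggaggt
MCM6: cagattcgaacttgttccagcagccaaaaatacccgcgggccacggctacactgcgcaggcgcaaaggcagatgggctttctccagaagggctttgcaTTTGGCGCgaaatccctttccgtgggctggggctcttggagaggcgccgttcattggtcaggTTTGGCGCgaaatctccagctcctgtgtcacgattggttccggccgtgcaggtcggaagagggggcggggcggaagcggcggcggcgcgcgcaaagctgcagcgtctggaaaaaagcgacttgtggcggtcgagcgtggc
PCNA: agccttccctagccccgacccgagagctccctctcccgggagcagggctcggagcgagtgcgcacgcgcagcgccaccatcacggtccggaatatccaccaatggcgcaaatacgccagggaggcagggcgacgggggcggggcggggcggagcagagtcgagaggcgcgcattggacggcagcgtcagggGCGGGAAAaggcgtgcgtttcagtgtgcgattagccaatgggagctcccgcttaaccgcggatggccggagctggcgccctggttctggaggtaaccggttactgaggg
The match began 174 bases before the start in MCM3, 152 and 90 bases before it in MCM6, and 59 bases before it, in the reverse orientation, in PCNA. A promoter entry was found for 42 of the 49 genes (not for MCM4, MCM5, XRCC5, GINS4, RAD54B, RAD21 and RAD21-AS1), and 14 of these 42 (33.3%) held at least 1 match, against 2.75% of 27305 promoters in the whole table and 3.69% of the 10749 promoters of genes on the array. The matches were unevenly spread over the roles. They were found in 9 of 12 helicase genes (75%), 2 of 12 double-strand break repair genes (XRCC2 and XRCC6) and none of 7 checkpoint genes. The string CCAAT on either strand was present in 27 of 42 (64.3%), against 39.7% of all promoters. A match describes letters in this window and not a bound site.

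The signals of these genes were modest. Values are deposited log2 normalized intensities, and the mean over 12 arrays ran from 2.44 for RAD51AP2 to 5.52 for XRCC6, while the median gene on the array had a mean of 2.89 and the quartiles of all genes were 2.64 and 3.22. The median percentile of the 49 genes was 65.7, with 18 above the upper quartile of all genes and 7 below the lower quartile. As a gauge of what a gene with little or no RNA in these cells gives, 102 keratin-associated and late cornified envelope genes of hair and skin were used, whose means had a 95th percentile of 4.13. Only XRCC6, XRCC5, RAD50, RAD23B, RAD21 and MSH6 had means above that level, 6 of 49, against 5.24% of all genes. XRCC6 was the only one of the 49 above the 95th percentile of the skin genes on each of the 12 arrays, and 31 were above it on no array. Most values of the group thus lay in the range that the skin genes also covered.

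The helicase and its loading factors were the largest group, with 15 genes. Here and below the values of a group are given in the order of its replicates. MCM9, which acts in recombination repair rather than in the replicative ring, read 3.0, 2.69 and 4.11 in leader cells, 3.73, 4.21 and 3.47 in follower cells, 3.45, 4.11 and 3.68 in IR cells, and 4.03, 5.02 and 3.60 in NG cells. The leader group held both the lowest value and a value within the range of the other groups, so it overlapped each of them. MCM6, a subunit of the ring, read 3.61, 3.19 and 3.92 in leader cells, 2.95, 3.22 and 3.91 in follower cells, 4.26, 4.15 and 2.97 in IR cells, and 3.42, 3.95 and 2.82 in NG cells, and every group spanned much the same interval. MCM2 read 2.94, 3.21 and 3.33 in leader cells, 2.91, 2.74 and 3.25 in follower cells, 3.19, 2.83 and 2.80 in IR cells, and 3.17, 2.75 and 2.63 in NG cells, with no array outside the range of 2.63 to 3.33. MCM5 read 2.09, 2.62 and 3.02 in leader cells, 2.69, 2.10 and 2.65 in follower cells, 2.79, 2.97 and 2.37 in IR cells, and 2.49, 2.66 and 2.46 in NG cells, and MCM7 read 3.45, 3.44 and 2.92 in leader cells, 3.16, 3.18 and 2.79 in follower cells, 3.35, 3.38 and 2.95 in IR cells, and 2.83, 3.43 and 2.88 in NG cells, again with all groups overlapping.

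MCM4 and MCM3 were the ring subunits whose values separated groups. MCM4 read 2.92, 2.80 and 3.07 in leader cells, 3.27, 2.79 and 2.48 in follower cells, 4.35, 3.62 and 4.04 in IR cells, and 4.05, 3.96 and 3.28 in NG cells. All 6 leader and follower arrays were below all 6 IR and NG arrays, although the nearest pair, follower replicate 1 and NG replicate 3, were only 0.0116 apart. MCM3 read 2.87, 3.01 and 2.94 in leader cells, 2.71, 3.22 and 3.28 in follower cells, 3.82, 3.09 and 3.55 in IR cells, and 3.50, 3.85 and 3.10 in NG cells. Its leader values were tightly grouped and below all IR and NG values, and its follower values overlapped both invasive groups. MCM4 was above the 95th percentile of the skin genes on only 1 array and MCM3 on no array.

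PCNA, the sliding clamp, read 2.60, 1.94 and 3.22 in leader cells, 3.66, 2.64 and 2.93 in follower cells, 3.61, 2.86 and 3.82 in IR cells, and 2.88, 2.71 and 3.02 in NG cells. Leader replicate 2 gave its lowest value and IR replicate 3 its highest, and no array was above the 95th percentile of the skin genes. RRM2, the subunit of ribonucleotide reductase that is made in S phase, read 3.19, 3.86 and 3.91 in leader cells, 3.38, 3.18 and 3.93 in follower cells, 3.42, 3.27 and 3.52 in IR cells, and 2.59, 4.94 and 3.85 in NG cells. NG cells held both its lowest and its highest array. RRM1, the other subunit, read 2.94, 3.01 and 2.84 in leader cells, 3.25, 2.52 and 2.98 in follower cells, 2.86, 2.58 and 2.73 in IR cells, and 3.26, 3.10 and 2.94 in NG cells, and its 3 IR values were below its 3 NG values.

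Among the checkpoint genes, RAD17, which loads the 9-1-1 clamp at damaged DNA, read 3.13, 4.19 and 3.13 in leader cells, 3.81, 2.91 and 3.20 in follower cells, 3.09, 3.39 and 3.55 in IR cells, and 3.12, 3.65 and 3.39 in NG cells, with leader replicate 2 the highest. RAD1, a part of that clamp, read 2.89, 2.56 and 3.03 in leader cells, 3.03, 3.90 and 3.60 in follower cells, 3.34, 3.0 and 3.23 in IR cells, and 2.76, 3.82 and 3.41 in NG cells. Leader cells held the lowest value of RAD1 but overlapped follower cells, since leader replicate 3 and follower replicate 1 were nearly equal. CHEK2 had the smallest spread within groups of the 49 genes, and its 12 values lay between 3.12 and 3.29.

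Of the double-strand break repair genes, XRCC6 and XRCC5 encode Ku70 and Ku80, which bind broken ends before they are joined. XRCC6 read 5.63, 5.90 and 5.05 in leader cells, 6.11, 5.55 and 4.75 in follower cells, 5.14, 5.41 and 5.41 in IR cells, and 6.11, 5.72 and 5.51 in NG cells. It was at 4.75 or above on every array, and only its IR and NG arrays did not overlap. XRCC5 read 4.60, 4.44 and 3.89 in leader cells, 3.91, 5.21 and 4.05 in follower cells, 4.84, 4.82 and 5.06 in IR cells, and 5.43, 5.63 and 6.70 in NG cells. Its 3 NG values were the highest of the 12, with replicate 3 more than 1 log2 unit above the next array, and its leader values were all below its IR values.

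RAD51C, a protein of homologous recombination, read 2.73, 2.67 and 2.77 in leader cells, 3.46, 4.77 and 3.04 in follower cells, 3.77, 3.11 and 3.59 in IR cells, and 4.40, 5.75 and 4.04 in NG cells. The 3 leader arrays gave the lowest values and lay within 0.102 of each other, while follower and NG arrays were each spread over more than 1 log2 unit. XRCC3, the partner of RAD51C, read 3.28, 3.08 and 3.28 in leader cells, 3.17, 3.27 and 2.91 in follower cells, 4.19, 4.46 and 3.27 in IR cells, and 3.12, 3.12 and 3.51 in NG cells. Only IR replicates 1 and 2 were above 4, and the other arrays lay between 2.91 and 3.51. The plot of 8 named genes by array shows both patterns.

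**Figure D1:**
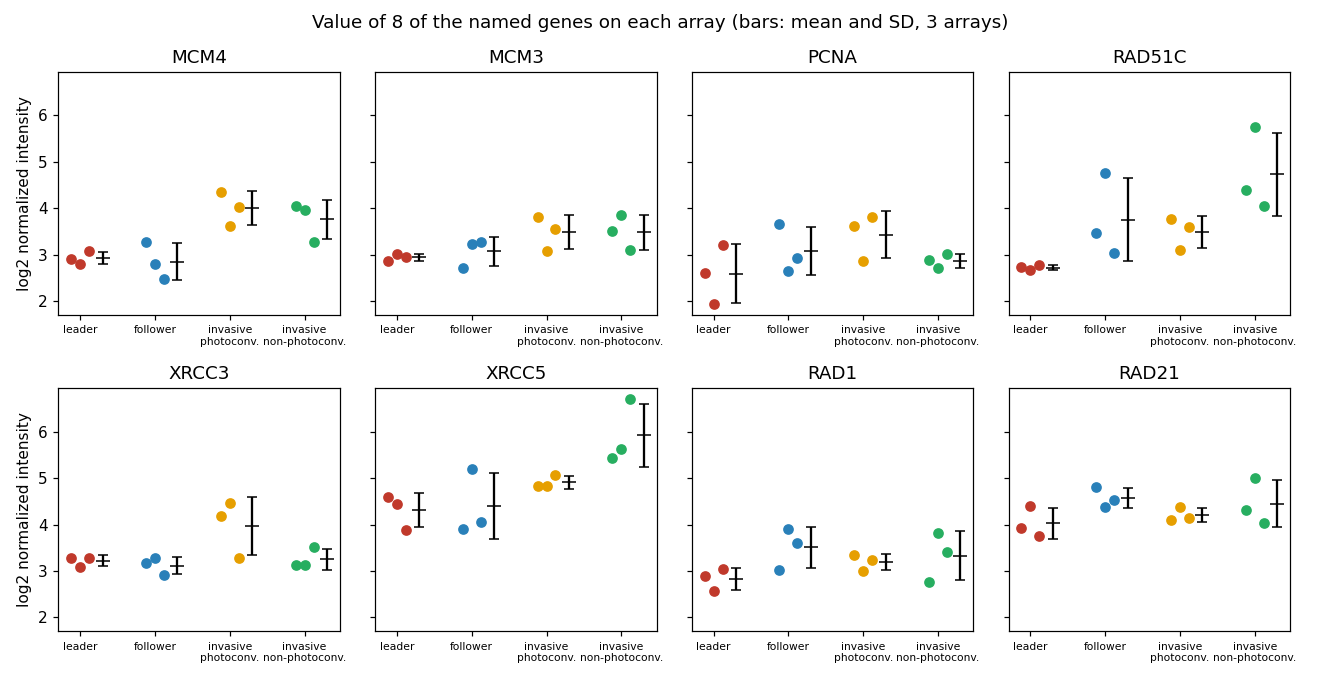
Log2 normalized intensity of 8 of the named genes on each of the 12 arrays, by group; coloured points are single arrays and the black bar beside them is the group mean with its SD over 3 arrays. MCM4 is at or below 3.27 on the leader and follower arrays and at or above 3.28 on the invasive arrays, whereas RAD51C in follower and NG cells and XRCC3 in IR cells are widely spread.

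RAD21, the cleavable subunit of cohesin, the ring that holds sister chromatids together, read 3.92, 4.40 and 3.76 in leader cells, 4.80, 4.39 and 4.52 in follower cells, 4.09, 4.37 and 4.14 in IR cells, and 4.32, 5.0 and 4.03 in NG cells. Its follower values overlapped its leader values but were all above its IR values. RAD21-AS1, an RNA from the opposite strand of the RAD21 gene, read 2.81, 2.92 and 3.26 in leader cells, 3.17, 2.59 and 3.18 in follower cells, 3.25, 2.83 and 2.78 in IR cells, and 2.94, 2.10 and 2.97 in NG cells, with NG replicate 2 the lowest. RAD23B, which recognises damage in nucleotide excision repair, read 4.89, 3.31 and 5.0 in leader cells, 4.22, 4.61 and 3.25 in follower cells, 4.38, 5.42 and 4.08 in IR cells, and 3.82, 5.25 and 4.25 in NG cells, a spread of over 1 log2 unit in each group.

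XRCC1, the scaffold of single-strand break repair, read 3.28, 3.07 and 3.77 in leader cells, 3.41, 3.56 and 3.41 in follower cells, 3.47, 3.58 and 3.76 in IR cells, and 2.63, 4.96 and 2.75 in NG cells, and NG cells held both its lowest and its highest array. MSH6, which recognises mismatches in newly copied DNA, read 4.59, 2.93 and 3.45 in leader cells, 4.38, 4.48 and 3.58 in follower cells, 4.26, 4.61 and 4.55 in IR cells, and 3.86, 5.39 and 4.28 in NG cells. Leader replicate 2 was its lowest array and NG replicate 2 its highest. MSH5, known for its part in meiotic crossing over, read 2.94, 3.46 and 3.61 in leader cells, 3.27, 4.40 and 3.07 in follower cells, 3.84, 3.42 and 2.97 in IR cells, and 3.22, 4.54 and 3.80 in NG cells, and RAD18, a ubiquitin ligase of lesion bypass, read 2.55, 2.49 and 2.61 in leader cells, 2.57, 2.58 and 2.98 in follower cells, 2.57, 2.58 and 2.82 in IR cells, and 2.78, 2.39 and 2.36 in NG cells.

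**Figure D2:**
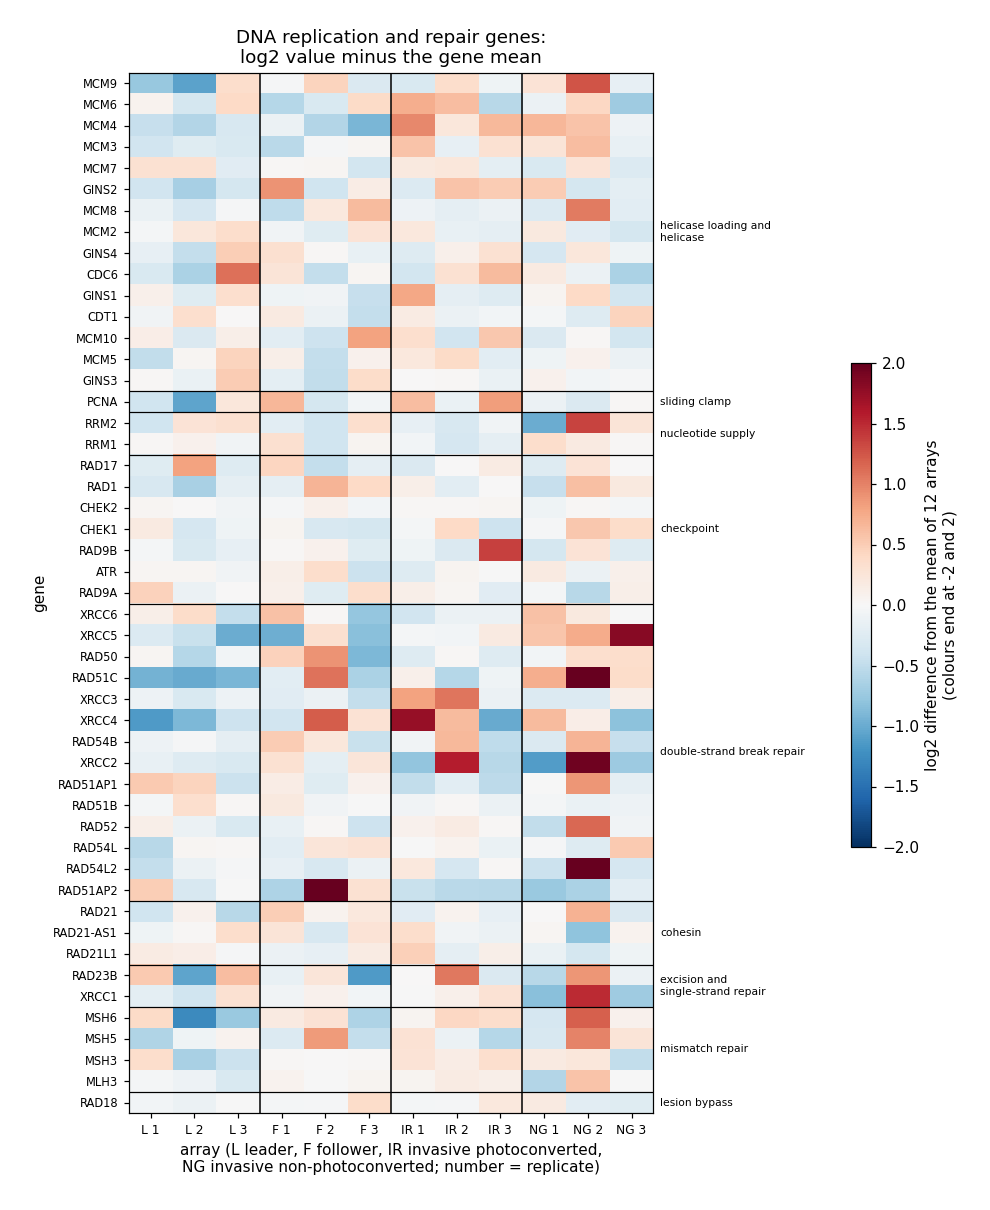
Heat map of the 49 genes (rows, grouped by role and ordered by mean within a role) on the 12 arrays (columns), coloured by log2 value minus the mean of that gene over the 12 arrays. Colours end at -2 and 2. Red cells are most frequent in the column of NG replicate 2, the highest array for 16 of the 49 genes.

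One array stood apart at the high end. NG replicate 2 was the highest array for 16 of the 49 genes (32.7%), against 11.2% of all genes, and its median over the 49 genes was 3.43, against 2.85 to 3.19 on the other 11 arrays. It also held 332 genes above 6, against 76 to 192 elsewhere, a mean of 5.68 over 6 housekeeping genes (3.94 to 5.20 elsewhere) and a mean of 4.91 over 16 dividing-cell genes (3.05 to 3.84 elsewhere). The part of these in the results was not tested, and for the comparisons with NG cells the counts at an unadjusted p and the medians are therefore also given without that array. At the low end, leader replicate 2 had the lowest median over the 49 genes (2.85) and the lowest housekeeping mean (3.94). Only 1 of the 49 genes was above the 95th percentile of the skin genes there, but its mean over the dividing-cell genes (3.79) was not low. Follower replicate 3 had the fewest genes above 6 (76). The part of these low arrays in the results was not tested either. In wells of sorted cells, fewer cells with a transcript and less of it per cell cannot be told apart. Of the 6 markers fixed for H1299, 5 were measured. VIM had group means between 5.25 and 6.68, but FN1 stood only at percentile 35.3 of all genes. ALB, APOA1 and PECAM1, the 3 measured of 8 markers of other cell types, averaged 3.04 to 3.68 per array. The value of 3.68 was on leader replicate 2, the only array where it exceeded the mean of the H1299 markers (3.36).

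**Figure D3:**
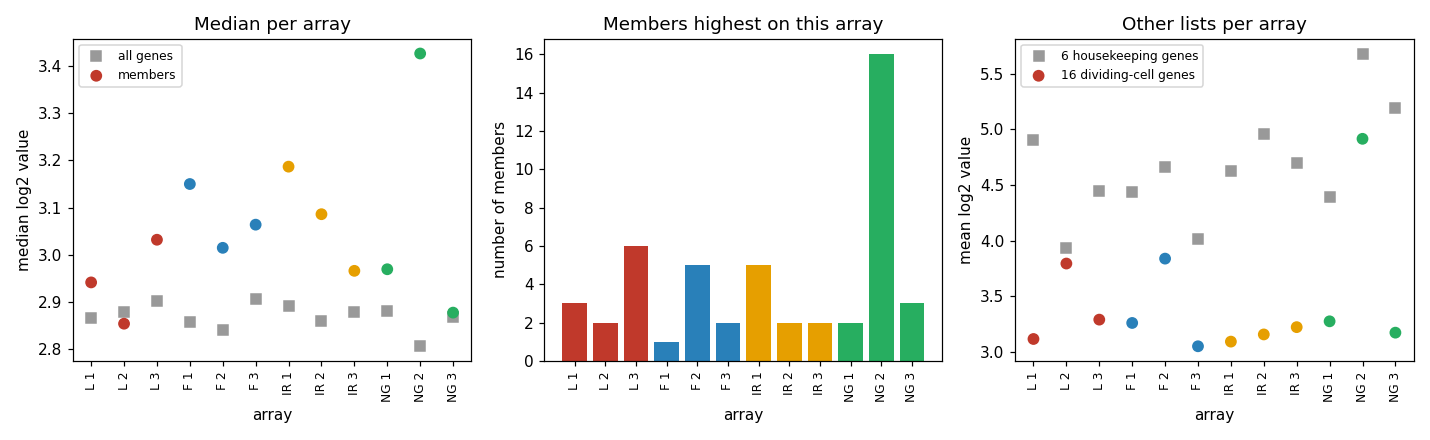
Views of the 12 arrays: the median log2 value of the 49 genes (coloured) and of all genes (grey), the number of the 49 genes whose highest value is on that array, and the mean log2 value of 6 housekeeping genes (grey) and 16 dividing-cell genes (coloured). NG replicate 2 is the highest point or bar in each panel for the coloured values.

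Single arrays set several of the extreme values. In 6 of the 49 genes (12.2%), against 5.56% of all genes, the highest array was more than 1 log2 unit above the next. RAD51AP2 read 5.70 on follower replicate 2 and no more than 2.94 elsewhere. RAD54L2, a helicase-like protein related to RAD54L, read 4.85 on NG replicate 2 and no more than 3.0 elsewhere. The others were XRCC1 and RRM2 on NG replicate 2, XRCC5 on NG replicate 3 and RAD9B on IR replicate 3. XRCC2, a protein of homologous recombination, was high on both IR replicate 2 (4.68) and NG replicate 2 (5.06) and no higher than 3.41 elsewhere. The median SD within groups was 0.413 over the 49 genes, against 0.322 over all genes and 0.507 over the genes above the upper quartile of means.

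The comparison of leader with follower cells is the central one of the study, which separated the cells at the front of an invading chain from those behind. None of the 49 genes differed between them at an adjusted p under 0.05 (limma over 14884 genes, 0% of which passed). At an unadjusted p under 0.05, 2 of the 49 (4.08%) had lower means in leader cells and none had higher means, against 1.98% of all genes lower, 2.14% higher and 4.12% in either direction. The 2 genes were RAD1, with a leader minus follower log2 difference of -0.68 (SE 0.29, limma adjusted p = 1.00), and RAD51C, with -1.03 (SE 0.47, limma adjusted p = 1.00). Without follower replicate 2, the difference of RAD51C was -0.53. RAD21 had a difference of -0.55 (SE 0.26, limma adjusted p = 1.00) and GINS2, a subunit of the helicase, one of -0.68 (SE 0.35, limma adjusted p = 1.00).

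GINS2 read 2.69, 2.42 and 2.73 in leader cells, 3.97, 2.68 and 3.23 in follower cells, 2.80, 3.65 and 3.58 in IR cells, and 3.58, 2.73 and 2.88 in NG cells. Follower replicate 1 was the highest of its 12 arrays, and without it the difference was -0.34. GINS2 and RAD1 were above the 95th percentile of the skin genes on no array. The groups did not overlap in 3 of the 49 genes, all lower in leader cells (RAD51C, XRCC4, which joins broken ends with ligase IV, and MLH3, a mismatch repair protein), against 8.74% of all genes, 3.73% lower and 5.01% higher. XRCC4 spread widely, from 2.16 on leader replicate 1 to 5.03 on IR replicate 1, and its difference was -1.19 (SE 0.63, limma adjusted p = 1.00), which was -0.77 without follower replicate 2.

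By role, the leader mean was the lower in 6 of 15 helicase genes, 4 of 7 checkpoint genes, 9 of 14 double-strand break repair genes and 4 of 4 mismatch repair genes, none of them past the adjusted threshold. Within the MCM2 to MCM7 ring, only MCM3 had a lower leader mean, and the 6 differences lay between -0.13 and 0.23. Over all 49 genes, 27 (55.1%) had lower means in leader cells, against 49.6% of all genes, and the median difference was -0.012, against 0.0022. Without follower replicate 1 that median was 0.0073. The median SE of a difference was 0.31, and for 30 of the 49 genes the 95% interval lay wholly between -1 and 1, where 1 is a 2-fold change. Since 31 of the 49 were above the 95th percentile of the skin genes on no array, these intervals describe the signal. They do not bound the change in RNA.

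The permutation procedure of the study's methods, which sets the 9 pairwise leader and follower differences against the 9 absolute differences between IR and NG, was also run. It left out 1 of the 49 genes for a difference between IR and NG and, of the remaining 48, found 0 genes up in leader cells and 1 up in follower cells, with no adjustment for the number of genes. Over all 14198 eligible genes, it called 3.23% up in leader cells and 2.46% up in follower cells. The gene called was XRCC2 (permutation p = 0.016, one-sided), which read 2.96, 2.85 and 2.81 in leader cells, 3.41, 2.92 and 3.36 in follower cells, 2.32, 4.68 and 2.55 in IR cells, and 1.99, 5.06 and 2.39 in NG cells, with overlapping leader and follower values and a log2 difference of -0.35 (SE 0.74). The SD of XRCC2 was 0.08 in leader and 0.27 in follower cells, against 1.30 in IR and 1.67 in NG cells. Its absolute differences between IR and NG were on average larger than its follower minus leader difference. The call therefore does not mean that XRCC2 exceeded the control difference. The pairwise differences reuse each array 3 times and are not independent.

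**Figure D4:**
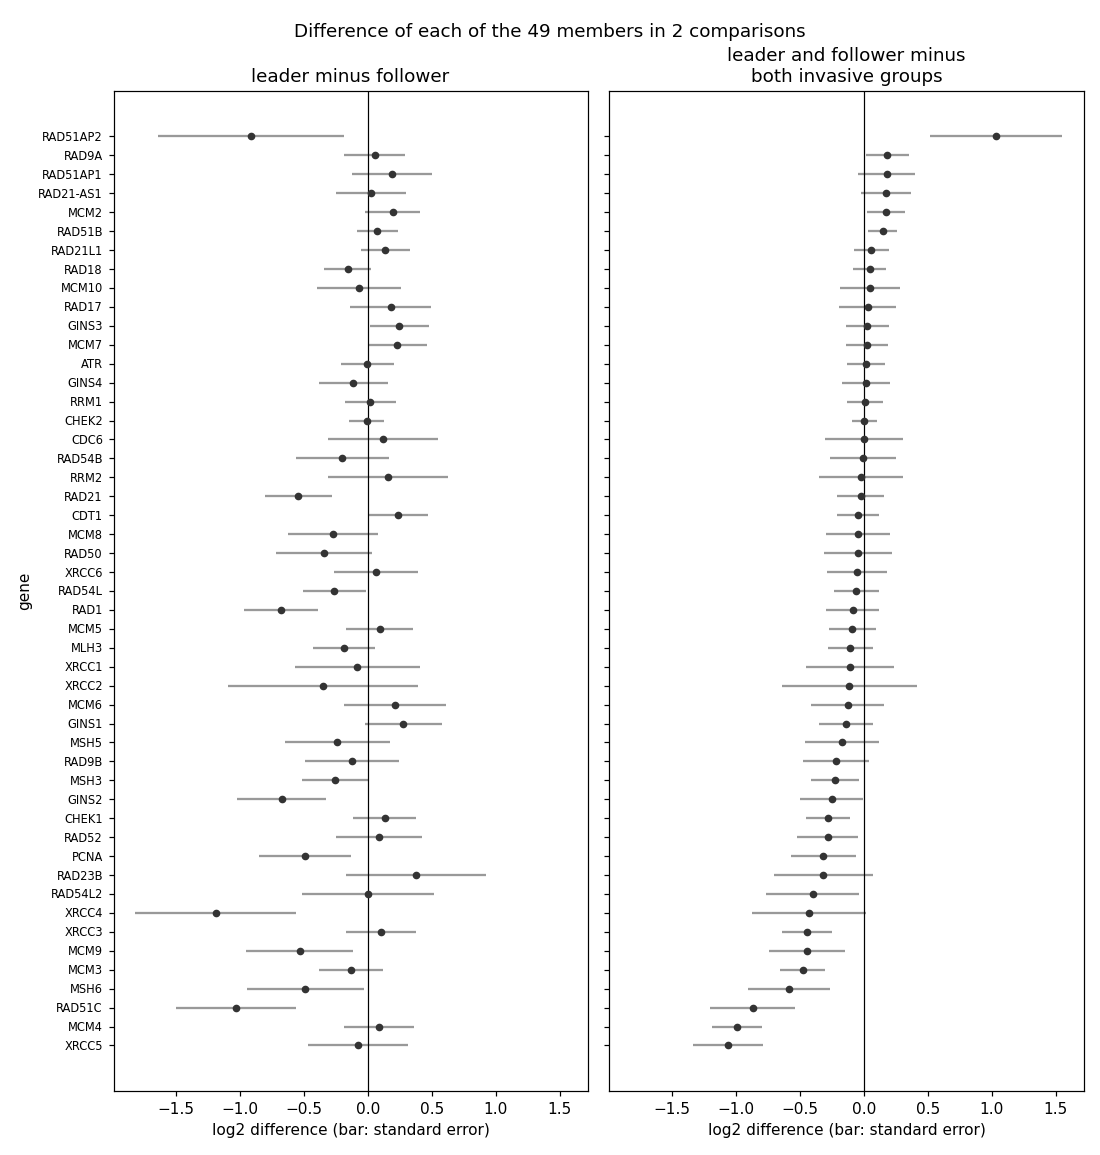
Log2 difference of each of the 49 genes (points) with its standard error (bars) between leader and follower cells (left) and between leader and follower cells together and both invasive groups together (right), ordered by the right panel. MCM4 (-0.99) and XRCC5 (-1.06) lie at the lower end on the right, and their leader minus follower differences are 0.08 and -0.08.

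IR and NG cells differ in whether the laser converted them, and this comparison served the study as the control for photoconversion. No gene passed an adjusted p under 0.05 (limma, 0% of all genes). At an unadjusted p under 0.05, 3 of the 49 genes (6.12%) differed, 1 higher and 2 lower in IR cells, against 4.86% of all genes, 1.85% higher and 3.01% lower. XRCC3 was higher in IR cells, with an IR minus NG difference of 0.72 (SE 0.27, limma adjusted p = 0.974), which was 0.48 without IR replicate 2. RAD51C was lower, with -1.24 (SE 0.47, limma adjusted p = 0.974) and -0.73 without NG replicate 2, and XRCC5 was lower, with -1.01 (SE 0.39, limma adjusted p = 0.974) and -0.62 without NG replicate 3. Each of these 3 differences thus depended in size on 1 array, and without NG replicate 2 the count was 2 genes.

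RAD51AP1, a protein of homologous recombination, read 3.60, 3.52 and 2.64 in leader cells, 3.22, 2.83 and 3.16 in follower cells, 2.58, 2.87 and 2.55 in IR cells, and 3.06, 3.95 and 2.90 in NG cells. Its IR values were all below its NG values, with a difference of -0.64 (SE 0.31, limma adjusted p = 0.998) that was -0.31 without NG replicate 2. The 2 groups did not overlap in 6 of the 49 genes (12.2%), against 9.75% of all genes, 5.1% higher and 4.65% lower. CHEK2 was higher in IR cells, by a difference of 0.06 (SE 0.14), and XRCC5, RAD51C, RAD51AP1, RRM1 and XRCC6 were lower. Over the 49 genes, 22 (44.9%) had lower means in IR cells, against 47.3% of all genes, with a median difference of 0.038 (0.017 over all genes). That median was -0.088 without NG replicate 1, -0.023 without NG replicate 3 and 0.11 without NG replicate 2, where 16 of the 49 genes had lower means in IR cells.

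Leader cells were then set against IR cells, which the labels call invasive and photoconverted without dividing them by position in the chain. No gene passed an adjusted p under 0.05 (limma, 0% of all genes). At an unadjusted p under 0.05, 3 of the 49 genes had lower means in leader cells (6.12%) and none had higher means, against 2.12% of all genes lower, 1.78% higher and 3.9% in either direction. MCM4 had a leader minus IR difference of -1.07 (SE 0.27, limma adjusted p = 1.00). XRCC3 had -0.75 (SE 0.27, limma adjusted p = 1.00), and PCNA had -0.85 (SE 0.36, limma adjusted p = 1.00), which was -0.52 without leader replicate 2. MCM3 followed with -0.54 (SE 0.25, limma adjusted p = 1.00).

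In this comparison 35 of the 49 genes (71.4%) had lower means in leader cells, against 49.7% of all genes, with a median difference of -0.13 (0.0022 over all genes). Without IR replicate 2 this was 31 of 49 with a median of -0.073, and without leader replicate 2 it was 31 of 49 with a median of -0.076. The lower means included 11 of 15 helicase genes, 10 of 14 double-strand break repair genes and 4 of 4 mismatch repair genes, while both ribonucleotide reductase genes had higher means. The groups did not overlap in 7 of the 49 genes (14.3%), against 9.54% of all genes, 4.53% lower and 5.01% higher. MCM4, MCM3, GINS2, RAD51C, XRCC5 and MLH3 were lower in leader cells and RAD51AP2 was higher. The 95% interval lay between -1 and 1 for 28 of the 49 genes.

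Follower cells were compared with IR cells in the same way. No gene passed an adjusted p under 0.05 (limma, 0% of all genes), and at an unadjusted p under 0.05 2 of the 49 (4.08%) had lower means in follower cells and none had higher means, against 2.14% of all genes lower, 2.07% higher and 4.21% in either direction. These were MCM4, with a follower minus IR difference of -1.16 (SE 0.27, limma adjusted p = 0.998), and XRCC3, with -0.85 (SE 0.27, limma adjusted p = 0.998). RAD51AP2 had the largest positive difference, 1.48 (SE 0.73, limma adjusted p = 0.998), but it was 0.35 without follower replicate 2. MCM3 had a difference of -0.41 (SE 0.25, limma adjusted p = 0.998), which was -0.23 without follower replicate 1. The leader and follower comparisons share the 3 IR arrays, so a high or low IR value enters both.

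The groups did not overlap in 4 of the 49 genes (8.16%), against 9.14% of all genes, 4.81% lower and 4.33% higher. Of these, MCM4, RAD52, a recombination gene, and MSH3, a mismatch repair gene, were lower in follower cells and RAD21 was higher. Lower means in follower cells were found in 27 of the 49 genes (55.1%, against 50.9% of all genes), with a median difference of -0.054 (-0.0054 over all genes). That median was -0.11 without follower replicate 1 and -0.024 without IR replicate 2. Among the 14 genes whose promoter held an E2F string, 11 had lower means in follower than in IR cells, with a median difference of -0.21, against 13 of 28 and 0.042 for the genes with a promoter and no match. For leader minus follower the counts were 7 of 14 and 16 of 28, with medians of -0.036 and -0.0089. For leader minus IR, which shares the IR arrays, they were 10 of 14 and 19 of 28, with medians of -0.18 and -0.089. For IR minus NG they were 6 of 14 and 14 of 28, with medians of 0.062 and -0.015. For leader and follower together minus both invasive groups they were 11 of 14 and 16 of 28, with medians of -0.12 and -0.055. The difference between the genes with and without a match was not tested, and no array was left out for it.

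Leader and follower arrays together against both invasive groups together gave the smallest p-values. Leader and follower cells are averaged here, so the front and the back of the chain are not contrasted. Leader, follower and IR cells were photoconverted and NG cells were not, so this comparison mixes selection by position in the chain with photoconversion. The 2 cannot be fully told apart in it. No member passed an adjusted p under 0.05, and 1 gene of 14884 (0.00672%), not one of the 49, did (limma). At an unadjusted p under 0.05, 5 of the 49 genes (10.2%) had lower means in leader and follower cells and none had higher means, against 3.38% of all genes lower, 2.28% higher and 5.66% in either direction. MCM4 had a mean of 2.93 ± 0.13 (SD, n = 3) in leader cells and 2.85 ± 0.40 in follower cells, against 4.0 ± 0.37 in IR cells and 3.76 ± 0.42 in NG cells. Its pooled difference was -0.99 (SE 0.19, limma adjusted p = 0.496), with a 95% interval from -1.42 to -0.57, and it stayed between -1.11 and -0.90 when each array was left out in turn. MCM4 was above the 95th percentile of the skin genes on only 1 array, so this interval describes the signal and does not bound the change in RNA. Between IR and NG, which differ in photoconversion, the difference of MCM4 was 0.24 (SE 0.27), which was -0.0028 without NG replicate 3.

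XRCC5 had a pooled difference of -1.06 (SE 0.27, limma adjusted p = 0.654), MCM3 one of -0.48 (SE 0.18, limma adjusted p = 0.826), RAD51C one of -0.87 (SE 0.33, limma adjusted p = 0.833) and XRCC3 one of -0.44 (SE 0.19, limma adjusted p = 0.854). The means of XRCC5 were 4.31 ± 0.37 (SD, n = 3) in leader cells, 4.39 ± 0.71 in follower cells, 4.91 ± 0.13 in IR cells and 5.92 ± 0.68 in NG cells, so most of its difference lay in the NG arrays. MCM4 was the only one of the 49 genes with no overlap between the 6 arrays of leader or follower cells and the 6 invasive arrays, against 0.302% of all genes (0.161% lower and 0.141% higher). The other ring subunits had pooled differences of 0.17 (SE 0.15) for MCM2, -0.09 (SE 0.19) for MCM5, -0.13 (SE 0.28) for MCM6 and 0.02 (SE 0.16) for MCM7. Whether MCM4 differed from its partners in this respect was not tested.

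Lower means in leader and follower cells were found in 32 of the 49 genes (65.3%, against 48.5% of all genes), with a median difference of -0.060 (0.0065 over all genes). That majority rested on 1 array. Without NG replicate 2, 23 of the 49 genes (46.9%) had lower means and the median difference was 0.0086, and 3 genes rather than 5 were at an unadjusted p under 0.05. A test of any difference among the 4 groups (limma F-test) called none of the 49 genes after adjustment (0% of all genes), with a lowest adjusted p of 0.766. At an unadjusted p under 0.05 it called MCM4, XRCC5, RAD51C and XRCC3, 4 of 49, against 4.96% of all genes, and 5 genes without NG replicate 2.

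Other genes of replication and S phase were looked at through a list of 44, of which 34 were measured. None passed an adjusted p under 0.05 in any of the 5 comparisons (limma), and at an unadjusted p under 0.05 none differed between leader and follower cells. TOP1, which relaxes supercoils ahead of the fork, had a leader minus follower difference of -0.67 (SE 0.30, limma adjusted p = 1.00), DBF4, the activator of the CDC7 kinase, one of -1.28 (SE 0.61, limma adjusted p = 1.00), and CDK2, the kinase that drives entry into S phase, one of -0.49 (SE 0.24, limma adjusted p = 1.00). In the pooled comparison 29 of the 34 (85.3%, against 48.5% of all genes) had lower means in leader and follower cells, with a median difference of -0.25. Without NG replicate 2 this was 25 of 34 with a median of -0.23, so the median stayed below 0 without that array. At an unadjusted p under 0.05, 5 of them were lower, namely DSCC1, DONSON, CCNE2, RRM2B and NASP (14.7%, against 3.38% of all genes), and 3 without NG replicate 2. The same threshold was passed by 5 of the 34 (14.7%, against 3.01% of all genes) with lower means in IR than in NG cells. It was passed by 4 (11.8%, against 2.12%) lower in leader than in IR cells, and by 1 (2.94%, against 2.14%) lower in follower than in IR cells. The excess was thus not particular to the pooled comparison.

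Of 64 further repair genes, 39 were measured and none passed an adjusted p under 0.05 in any of the 5 comparisons (limma). Between leader and follower cells, 2 had higher and 2 had lower means at an unadjusted p under 0.05. POLI, a bypass polymerase, had a leader minus follower difference of 1.27 (SE 0.46, limma adjusted p = 1.00), PMS1, a mismatch repair protein, one of -0.73 (SE 0.26, limma adjusted p = 1.00), and MDC1, which gathers repair proteins at breaks, one of 0.60 (SE 0.25, limma adjusted p = 1.00). The median difference over the 39 was -0.032, and 23 had lower means in leader cells.

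Of 49 genes, 3 had a second probeset. The probesets of CHEK2 gave leader minus follower differences of -0.012 and 0.16, those of GINS4 -0.12 and 0.065, and those of MSH5 -0.24 and -0.51. For MSH5 the probesets had opposite signs between IR and NG cells, -0.45 and 0.40, with the first of each pair being the one used.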

How the data were processed

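The authors deposited 1 table of log2 values for 12 Affymetrix Human Gene 2.0 ST arrays. Per the study's methods, cDNA was amplified from a few sorted cells, and the array files were adjusted for GC content, background corrected by RMA, log2 transformed, quantile normalized and summarized by probeset in Partek 6.6. For the probesets, the genome build was not given in the sources used here. Amplification from so few cells leaves some transcripts out of a well, and quantile normalization gives all arrays 1 distribution.

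The table held 53617 probesets, of which 16098 had 1 gene symbol in the platform annotation, and the probeset with the highest mean stood for each of 14884 symbols. Groups and replicates were taken from the sample labels. Differences were tested with limma 3.58.1 in R 4.3.3 over all 14884 genes and all 12 arrays, with Benjamini-Hochberg adjustment over all genes, no filter on low values and no replicate block. The limma fit and the permutation procedure were tested on simulated data. No raw array files were used, and 3 arrays per group limit the precision.

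Levels per array were given for the 2 highest genes of each role, MCM2 to MCM7, PCNA, RRM1 and RRM2, and differences for the 4 genes with the smallest p in each comparison, with up to 3 genes of each further list. Any other gene was named after its values were seen. The genes and lists were chosen with earlier results of these data known. Alternatives were 2 further normalizations, a filter on low values, other choices of probesets, another prior, array weights, fewer arrays in the fit, a replicate block and leaving out each array.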

Additional observations from a re-analysis of the deposited data

How the results depend on the processing

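The count of 0 of the 49 genes past an adjusted p under 0.05 was the same in each of the 5 comparisons and the F-test under median centring, cyclic loess, the filter on low values, the mean of probesets, all probesets, a trended robust prior, array weights and the replicate block, in the comparisons of 2 groups with only the groups compared, and between IR and NG with the methods' t-test, and it ranged from 0 to 0 when each array was left out. Deviations from the group means were correlated above 0.1 in 3 of 18 pairs of same-numbered arrays. The mean correlation of same-numbered arrays was 0.036. Deviations sum to 0 within a group, so the mean for arrays with different numbers (-0.018) largely follows from it and adds no further evidence. Among replicate 2 of follower, IR and NG cells the correlations were 0.098, 0.22 and 0.17. Those of leader replicate 2 with these arrays were -0.020, -0.071 and -0.0081. The numbers were not taken as pairs in the main fit, and a weak shared structure was not excluded. With the replicate block, 3 genes rather than 2 were at an unadjusted p under 0.05 between leader and follower cells, and 4 rather than 5 in the pooled comparison. Unadjusted counts moved more than the adjusted ones. Leader against IR gave 3 genes, 6 with array weights, 7 with only the groups compared, and 1 to 5 when an array was left out, the lowest without leader replicate 2. Leader against follower gave 1 to 3 when an array was left out, and 1 under median centring, the filter on low values, all probesets, the trended robust prior and the permutation procedure. IR against NG gave 1 to 4, the lowest without IR replicate 1, and 1 gene by the methods' t-test, which called 4.61% of all genes. The pooled comparison gave 2 to 6, the lowest without IR replicate 1, with 3 genes without follower replicate 1, follower replicate 3 or NG replicate 2. None of the 20 differences that the text names for their small p changed sign in these settings. Others that it prints did when an array was left out, among them MCM4 and XRCC5 between leader and follower cells and MCM5, MCM6 and MCM7 in the pooled comparison. Over all 49 genes the sign of the leader minus follower difference was kept in only 24 when each array was left out in turn. Olfactory receptor genes, planned as the gauge of low signal, could not serve because the symbols held 1 of them, and the hair and skin genes were chosen after seeing the data.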

Other observations

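Genes of dividing cells formed a list of 20, of which 16 were measured. Between IR and NG cells all 16 had lower means in IR cells, with a median difference of -0.51, but without NG replicate 2 this was 8 of 16 with a median of 0.00088. Between leader and follower cells 9 of 16 had lower means in leader cells, with a median of -0.014. Between leader and IR cells 4 of 16 had lower means in leader cells, with a median of 0.23, and 35 of the 49 replication and repair genes had lower means there, or 31 without IR replicate 2. The difference between the lists was not tested, and none of the 16 genes passed an adjusted p under 0.05 (limma) in any of the 5 comparisons.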
